A study of Caenorhabditis elegans with 72 samples.

Results

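The genes described here encode 10 enzymes that add acetyl groups to histones or remove them: the acetyltransferases *cbp-1*, *pcaf-1* and *mys-1*, the class I deacetylases *hda-1*, *hda-2* and *hda-3*, the class II deacetylases *hda-4*, *hda-5* and *hda-6*, and the sirtuin *sir-2.1*. They were chosen by name, from a table of 46624 *C. elegans* genes, and all 10 were found in it. Of the genes in the table, 13250 had a mean expression of at least 1 FPKM (reads scaled by transcript length and by the size of the library) in the control, and all 10 enzymes were among them.

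RNA from whole animals collected at late L4, the last larval stage, was sequenced after polyA capture. The labels list 72 samples, 18 for each of 4 genotypes, under the strain background AX204, and the study's methods give 5 independent biological replicates for the *ilc-17.1* group and 6 for each other group. The control, named WT in the sample titles, carries a mutation in *npr-1*, which encodes a neuropeptide receptor, and each other group carries it too, combined with loss of a second gene: *malt-1* (a paracaspase), *ilc-17.1* (a ligand of the IL-17 family) or *nfki-1* (related to IκB proteins), which act in one signaling pathway. No animals with a functional *npr-1* gene were included, and the alleles in these libraries are not given in the sources used here.

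Acetylation of lysines on histone tails loosens chromatin and marks active promoters and enhancers. Acetyltransferases take the acetyl group from acetyl-CoA, zinc-dependent deacetylases of class I and class II hydrolyze it, and sirtuins remove it with the cofactor NAD. Each enzyme works inside larger complexes with subunits that bring it to chromatin, and bromodomain proteins bind the acetylated lysines.

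The deposited table holds 1 pooled FPKM value per genotype and comparison and no value per sample. No spread between replicates or SD can therefore be given for any value below, and no test was run on them. The authors' own test results were not used, and library depth is unknown. A difference is log2(FPKM + 0.1) of one genotype minus that of another, which understates the change of genes with low FPKM. A gene was counted as past the fold when this difference was 0.25 or more in either direction, which says nothing of replicate error. Where 3 values are given for the mutants, they stand in the order *malt-1*, then *ilc-17.1*, then *nfki-1*. Each comparison with *npr-1* uses the same *npr-1* libraries, so the 3 sets of differences are not independent of each other. In whole animals, fewer cells of a type and less RNA per cell cannot be told apart.

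The mutated genes and marker genes gave the following background. *malt-1* was at 3.99 FPKM in *malt-1* mutants and 6.49 FPKM in *npr-1*, and *nfki-1* was at 8.94 FPKM in *nfki-1* mutants and 24.1 FPKM in *npr-1*. A negative difference of *nfki-1*, -0.41, was present in *malt-1* mutants as well. *malt-1* was higher past the fold in *ilc-17.1* mutants, at 8.29 FPKM against 6.58 FPKM in *npr-1*, a difference of 0.33. *ilc-17.1* was under 1 FPKM in every genotype, with 0.157 FPKM in *ilc-17.1* mutants and 0.315 FPKM in *npr-1*, which leaves little to check that label by. Yolk protein genes were higher past the fold in all 3 mutants (6 of 6 genes in each), and of 8 germline markers 6, 7 and 6 were lower past the fold in the 3 mutants.

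In *npr-1*, *hda-1* had the highest level of the 10 genes and *hda-5* the lowest. *hda-1*, the homolog of mammalian HDAC1 and the catalytic subunit of a nucleosome remodeling complex, was at 61.1 FPKM. *hda-6*, related to the tubulin deacetylase HDAC6 of mammals, lay between 49.6 and 50.4 FPKM. After these came *hda-3* at 27.8 FPKM, *sir-2.1* at 25.6 FPKM, *mys-1* at 22.7 FPKM and *cbp-1* at 20.4 FPKM. *hda-2* was at 15.5 FPKM, *hda-4* at 13.8 FPKM, *pcaf-1* at 11.7 FPKM and *hda-5* at 7.10 FPKM. These are means of the authors' values over the 3 comparisons with *npr-1*, and for each of the 10 genes these values differed only through the scaling of each comparison. No neighboring pair of this order had overlapping ranges over the comparisons, but those ranges hold no replicate error.

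**Figure D1:**
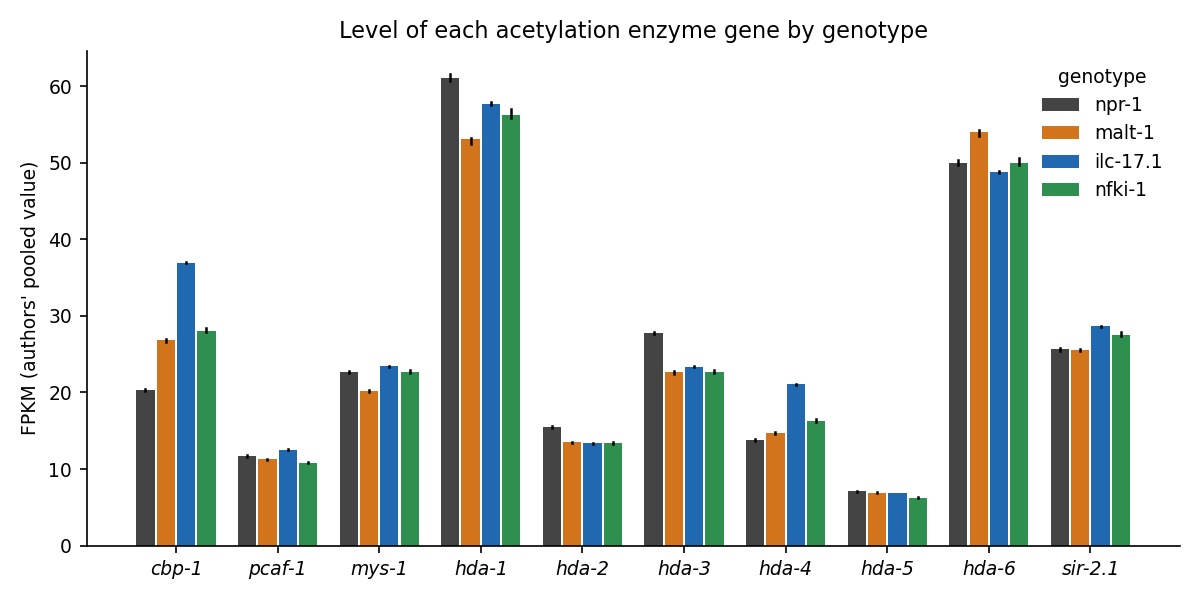
Level of each gene by genotype in FPKM, with 1 bar per genotype for the mean of the authors' pooled values over the comparisons that hold it. Black lines run from the lowest to the highest of those values and show scaling between comparisons, not replicate error. *cbp-1* stands at 20.4 FPKM in *npr-1* and 37.0 FPKM in *ilc-17.1* mutants, while *pcaf-1* stays between 10.8 and 12.5 FPKM.

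*cbp-1* encodes the worm homolog of the coactivators CBP and p300, which acetylate histones at enhancers and promoters. It was higher past the fold in each mutant, but only in *ilc-17.1* mutants (0.35) once the median of genes with like transcript length, described further on, was subtracted. In the comparison of *malt-1* mutants with *npr-1* it was at 26.5 and 20.2 FPKM, a difference of 0.39 and a ratio of 1.31. In that of *ilc-17.1* mutants it was at 36.9 and 20.5 FPKM, a difference of 0.84 and a ratio of 1.79. In that of *nfki-1* mutants it was at 27.9 and 20.4 FPKM, a difference of 0.45 and a ratio of 1.37. The level was thus lowest in *npr-1*, close together in *malt-1* and *nfki-1* mutants, and highest in *ilc-17.1* mutants. Among all 13250 genes, 461 (3.48%) had a larger difference than *cbp-1* in *ilc-17.1* mutants, and 1309 (9.88%) and 2158 (16.3%) did in those of *malt-1* and *nfki-1*. *cbp-1* was 6th of the 10 genes by level in *npr-1* and 3rd in each mutant.

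The other acetyltransferases among the 10 genes stayed within the fold in all comparisons. *pcaf-1*, the homolog of GCN5 and PCAF, was at 11.2, 12.5 and 10.7 FPKM in the 3 mutants, with differences of -0.06, 0.09 and -0.12 from *npr-1*. *mys-1*, the homolog of TIP60, a MYST-family enzyme that acetylates histone H4, was at 20.0, 23.4 and 22.6 FPKM, with differences of -0.17, 0.03 and -0.01. *cbp-1* therefore made up 37.2% of the summed FPKM of the 3 acetyltransferases in *npr-1*, 46.0% in *malt-1*, 50.7% in *ilc-17.1* and 45.6% in *nfki-1* mutants.

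All 3 class I deacetylases had negative differences in each mutant, and 1 of them, *hda-3*, was past the fold. *hda-3* was at 22.4 FPKM in *malt-1* mutants and 27.6 FPKM in *npr-1* (a difference of -0.30), at 23.3 and 28.0 FPKM in the comparison of *ilc-17.1* mutants (-0.26), and at 22.5 and 27.8 FPKM in that of *nfki-1* mutants (-0.30). The 3 mutants lay within 1 FPKM of each other for this gene. Among all 13250 genes, 1614, 2870 and 2122 had a lower difference than *hda-3* in the 3 mutants. Of all genes, 14.8%, 22.5% and 20.5% were lower past the fold in these mutants, so a difference of this size was common. Median differences over all genes were -0.01, 0.01 and 0.00, so a negative sign alone was common too. *hda-2* was just inside the fold (past it in *ilc-17.1* mutants, at -0.26, after subtraction of the median of genes with like transcript length), at 13.4, 13.3 and 13.3 FPKM in the 3 mutants, with differences of -0.20, -0.22 and -0.22 from *npr-1*. *hda-1* was at 52.5, 57.5 and 55.9 FPKM in the same order, with differences of -0.21, -0.10 and -0.13. Within a genotype, the ratio of *cbp-1* to *hda-1* FPKM was 0.333 in *npr-1*, 0.505 in *malt-1*, 0.641 in *ilc-17.1* and 0.498 in *nfki-1* mutants. The longest transcripts of these genes differ in length, at 7131 and 1839 bases. In *ilc-17.1* mutants, genes with like transcript length had a median difference of 0.49 for *cbp-1* and -0.01 for *hda-1*. What part transcript length has in this ratio was not tested. Summed FPKM of the 3 acetyltransferases relative to that of the 3 class I deacetylases was 0.524 in *npr-1*, 0.654 in *malt-1*, 0.772 in *ilc-17.1* and 0.667 in *nfki-1* mutants. Of these acetyltransferases only *cbp-1* was past the fold. The ratio leaves out class II, whose summed FPKM was 70.9, 75.7, 76.7 and 72.5 in the same order. Summed FPKM of 6 other acetyltransferases or relatives of *cbp-1*, listed further on, went from 179 in *npr-1* to 164 in *malt-1* mutants. It went from 182 to 192 in the *ilc-17.1* comparison and from 180 to 164 in that of *nfki-1*. The sum includes the relatives *cbp-2* and *cbp-3*, whose single values are uncertain. They went from 29.4 to 24.6 and from 71.4 to 64.4 FPKM in the *malt-1* comparison. In that of *nfki-1* they went from 29.6 to 24.9 and from 71.9 to 60.9 FPKM. Of the 6 genes, 5, 1 and 4 had negative differences in the 3 mutants.

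Of the class II deacetylases, *hda-4* was past the fold in *ilc-17.1* mutants. *hda-4* encodes a class IIa enzyme, a family that in mammals binds MEF2 transcription factors. It was at 21.0 FPKM in *ilc-17.1* mutants and 13.9 FPKM in *npr-1*, a difference of 0.59, and 938 genes (7.08%) had a larger one. In *nfki-1* mutants it was at 16.2 FPKM against 13.8 FPKM (0.23), and in *malt-1* mutants at 14.6 against 13.7 FPKM (0.09). *hda-6* was at 53.5, 48.6 and 49.7 FPKM in the 3 mutants, with differences of 0.11, -0.05 and -0.01, and was the gene with the highest level of the 10 in *malt-1* mutants. *hda-5* was at 6.87, 6.86 and 6.21 FPKM, with differences of -0.04, -0.06 and -0.19. *sir-2.1*, the NAD-dependent deacetylase best known in worms for its part in stress resistance, was at 25.4, 28.6 and 27.3 FPKM, with differences of -0.01, 0.15 and 0.09.

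**Figure D2:**
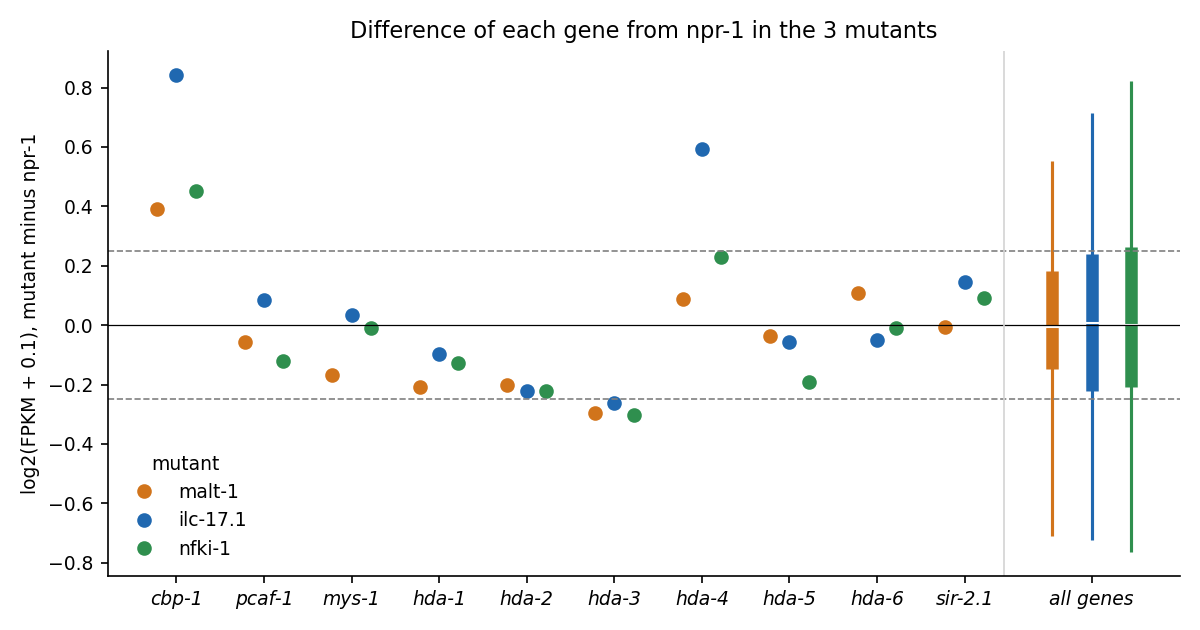
Difference of log2(FPKM + 0.1) between each mutant and *npr-1*, with 1 point per gene and mutant, and dashed lines at the fold of 0.25 in both directions. At the right, thick bars hold the middle 50% and thin lines the 5th to 95th percentile of all 13250 genes, with the median as a white mark. *cbp-1* in *ilc-17.1* mutants, at 0.84, lies above the 95th percentile of 0.71, and *hda-3* lies at -0.30, -0.26 and -0.30.

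The share of the 10 genes past the fold was no higher than that of all genes in any comparison with *npr-1*. In *malt-1* mutants 1 was higher and 1 lower, where 18.9% of all genes were higher and 14.8% lower. In *ilc-17.1* mutants 2 were higher and 1 lower, where 24.3% of all genes were higher and 22.5% lower. In *nfki-1* mutants 1 was higher and 1 lower, where 25.9% of all genes were higher and 20.5% lower. The median difference of the 10 genes was -0.05, -0.01 and -0.07 in the 3 mutants, beside -0.01, 0.01 and 0.00 over all genes.

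The mutants were also compared with each other. *cbp-1* was at 37.0 FPKM in *ilc-17.1* and 26.9 FPKM in *malt-1* mutants, a difference of 0.46, and *hda-4* at 21.1 and 14.8 FPKM, a difference of 0.51. These were the 2 genes higher in this comparison and 0 were lower, where 20.5% of all genes were higher and 18.8% lower. Between *nfki-1* and *ilc-17.1* mutants the same genes were the 2 that were lower, with differences of -0.38 for *cbp-1* and -0.35 for *hda-4*, and 0 were higher, where 14% of all genes were lower and 19.3% higher. Between *nfki-1* and *malt-1* mutants 0 of the 10 genes passed the fold in either direction, where 17.9% of all genes were higher and 11.5% lower. *cbp-1* differed by 0.05 in that comparison and *hda-4* by 0.13. The comparisons with *ilc-17.1* mutants share its libraries, so these 2 results are not independent. After subtraction of the median of genes with like transcript length, *cbp-1* no longer passed the fold in either, at 0.14 and -0.16, *hda-4* still did, at 0.31 and -0.30, and *hda-6* newly did, at -0.34 for *ilc-17.1* minus *malt-1*.

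Differences in *ilc-17.1* and *nfki-1* mutants varied with transcript length across all genes, and *cbp-1* and *hda-4* have long transcripts. The longest annotated *cbp-1* transcript has 7131 bases and that of *hda-4* 3622 bases, beside a median of 1236 bases over the genes counted. When genes were split into 10 groups of about equal size by transcript length, the median difference in *ilc-17.1* mutants was -0.08 in the group of shortest transcripts and 0.29 in that of the longest, which starts at 2974 bases. The same medians were -0.09 and 0.15 in *nfki-1* mutants. In *malt-1* mutants the medians of the 10 groups lay between -0.04 and 0.04 and did not climb steadily with length. Genes of like length were taken as the 200 nearest in rank of transcript length, which for *cbp-1* are the longest of the genes counted and run from 5538 to 45903 bases, reaching much further above its own length than below it. Of these, 24.5%, 84% and 46.5% were higher past the fold in the 3 mutants. Their median differences were 0.16, 0.49 and 0.23, which leaves *cbp-1* 0.23, 0.35 and 0.22 above them. Of these 200 genes, 6.5%, 4.5% and 18.5% had a larger difference than *cbp-1*, beside 9.88%, 3.48% and 16.3% of all genes. For *hda-4* in *ilc-17.1* mutants the median of the 200 genes nearest in rank was 0.23, which leaves 0.37. The shorter *hda-3* transcript, of 1730 bases, stayed at -0.30, -0.28 and -0.30 in the 3 mutants after the same subtraction. What part transcript length has in the values of *cbp-1* and *hda-4* was not tested.

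**Figure D3:**
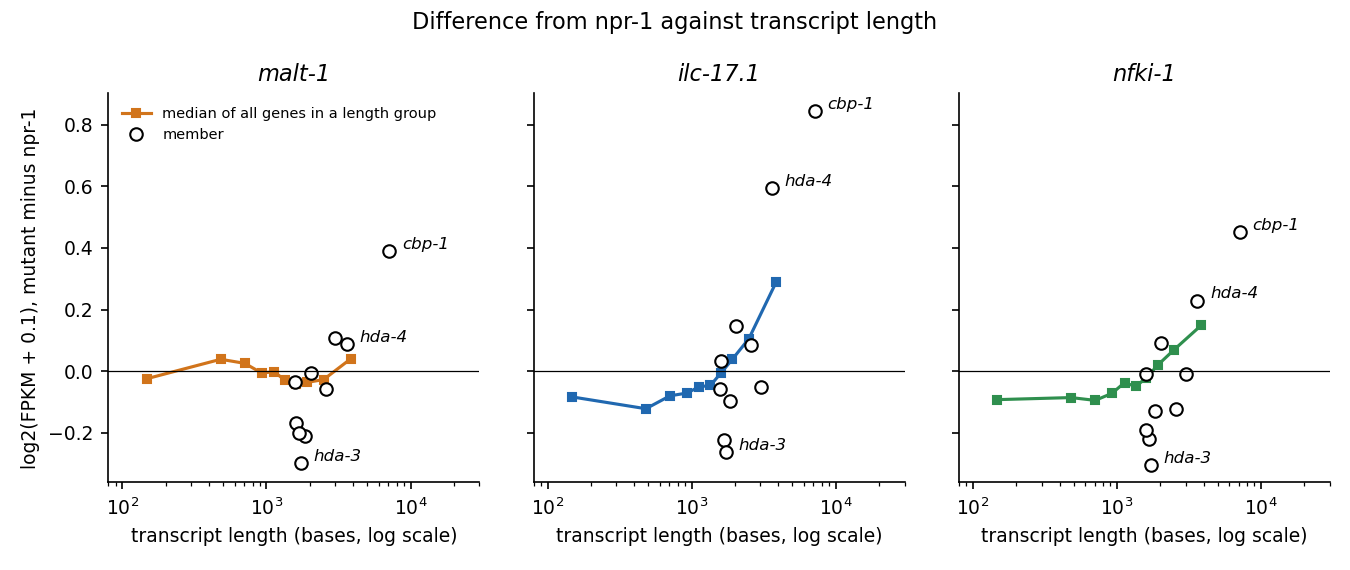
Difference of log2(FPKM + 0.1) from *npr-1* against the longest annotated transcript in bases (log scale), with 1 panel per mutant. Squares joined by lines are the median of all genes in each of 10 groups by length, drawn at the median length of the group, and open circles are the 10 genes. In *ilc-17.1* mutants the squares climb to 0.29 in the group of longest transcripts, and *cbp-1* and *hda-4* lie above them at 0.84 and 0.59.

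Positions are those of the locus in the deposited table, which names no genome build. A locus shared with neighbors spans them too, so it can be longer than the gene itself. *cbp-1* lies on chromosome III (9766516 to 9774825), *hda-3* on chromosome I (11912791 to 11917719) and *hda-4* on chromosome X (16729559 to 16744698). *hda-1* lies on chromosome V (14525389 to 14527411), *hda-5* on chromosome II (11799037 to 11802412), *hda-6* on chromosome IV (5354488 to 5364306) and *sir-2.1* on the same chromosome (10360800 to 10366249). *pcaf-1* lies on chromosome I (3516450 to 3529956), *mys-1* on chromosome V (7075877 to 7084662) and *hda-2* on chromosome II (8017571 to 8022561). The annotation gives *cbp-1* 4 transcripts, with 12 exons in the longest, *hda-4* 2 transcripts and *hda-3* 1. The table gives *hda-1*, *hda-3* and *hda-5* a locus of their own, and each of the other 7 genes one that it shares with neighbors. The WBcel235 annotation places *pcaf-1* itself at 3516450 to 3523418, *mys-1* at 7081545 to 7084662 and *hda-2* at 8020780 to 8022561. It places *hda-6* at 5356543 to 5364306 and *sir-2.1* at 10363318 to 10366229. The *cbp-1* locus also holds R10E11.13, an annotated noncoding RNA on the same strand that overlaps it, at 73.2 FPKM in *npr-1*. R10E11.13 had differences of 0.43, -0.65 and -0.23 in the 3 mutants, so it was lower in *ilc-17.1* mutants, where *cbp-1* was highest. How reads were divided between the overlapping genes was not tested. The *hda-4* locus likewise holds an overlapping noncoding RNA on the same strand, T21F2.2, at 2.88 FPKM in *npr-1* and listed at 0 in each mutant. *mys-1* overlaps *npa-1* on the opposite strand, which was at 327 FPKM in *npr-1* and had a difference of 0.69 in *ilc-17.1* mutants, where *mys-1* had 0.03.

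Genes that act with these enzymes were read from lists by role, with values given for the largest change in each direction. Their counts stand beside 18.9% of all genes higher and 14.8% lower in *malt-1* mutants, 24.3% and 22.5% in *ilc-17.1* mutants, and 25.9% and 20.5% in *nfki-1* mutants, and with lists this short nothing particular to them is read from the counts. Among 6 other acetyltransferases or relatives of *cbp-1*, 1 was past the fold in *malt-1* mutants (*cbp-2*, -0.25), 1 in *ilc-17.1* mutants (*mys-4*, 0.41) and 0 in *nfki-1* mutants. *cbp-2* and *cbp-3*, which carry the name of *cbp-1*, were at 29.8 and 72.4 FPKM in *npr-1* and had differences of 0.01 and 0.11 in *ilc-17.1* mutants, where *cbp-1* had 0.84. Reads shared among these relatives could not be checked, so their single values are uncertain. Of 5 other deacetylases, 4 had at least 1 FPKM, and *hda-11* was lower in *nfki-1* mutants (-0.50) and *hda-10* in *ilc-17.1* mutants (-0.26). After subtraction of the median of genes with like transcript length, 0 of these 4 passed the fold in *malt-1* or *ilc-17.1* mutants. In *nfki-1* mutants 1 was lower. Of the 6 acetyltransferases or relatives, 0 then passed it in *malt-1* mutants, 1 was higher in *ilc-17.1* and 1 lower in *nfki-1* mutants.

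Partners of the MYST acetyltransferases, which include *mys-1*, were divided. Of 8 genes, 0 were higher and 3 lower in *malt-1* mutants, 3 higher and 4 lower in *ilc-17.1* mutants, and 1 higher and 5 lower in *nfki-1* mutants. *mrg-1*, which encodes a chromodomain protein, was at 47.4 FPKM in *ilc-17.1* mutants and 73.5 FPKM in *npr-1*, a difference of -0.63, and had -0.31 and -0.52 in *malt-1* and *nfki-1* mutants. *ssl-1*, a SWI/SNF-like ATPase with a transcript of 8002 bases, was the highest, at 0.56 in *ilc-17.1* and 0.39 in *nfki-1* mutants. After subtraction of the median of genes with like transcript length, 0 were higher in any of these comparisons and 2, 4 and 4 were lower. The median of the list was -0.22 in *malt-1*, -0.22 in *ilc-17.1* and -0.31 in *nfki-1* mutants.

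Subunits of the deacetylase complexes were likewise mixed. Of 11 genes, 2 were higher and 1 lower in *malt-1* mutants, 4 higher and 2 lower in *ilc-17.1* mutants, and 2 higher and 3 lower in *nfki-1* mutants, with medians of -0.07, 0.18 and 0.07. *chd-3*, which encodes a chromatin remodeler of the Mi-2 family, was at 23.5 FPKM in *ilc-17.1* mutants and 13.3 FPKM in *npr-1*, a difference of 0.82 close to that of *cbp-1*. *lin-40*, the homolog of the MTA subunits, was past the fold in each mutant, at 0.28, 0.46 and 0.41. *lin-53*, which encodes a histone-binding WD40 protein, was past it in the other direction, at -0.26, -0.34 and -0.35. *mbd-2* had -0.42 in *nfki-1* mutants, the lowest value of the list there. After subtraction of the median of genes with like transcript length, 0 were past the fold in *malt-1* mutants, 2 higher and 2 lower in *ilc-17.1* mutants, and 0 higher and 3 lower in *nfki-1* mutants.

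**Figure D4:**
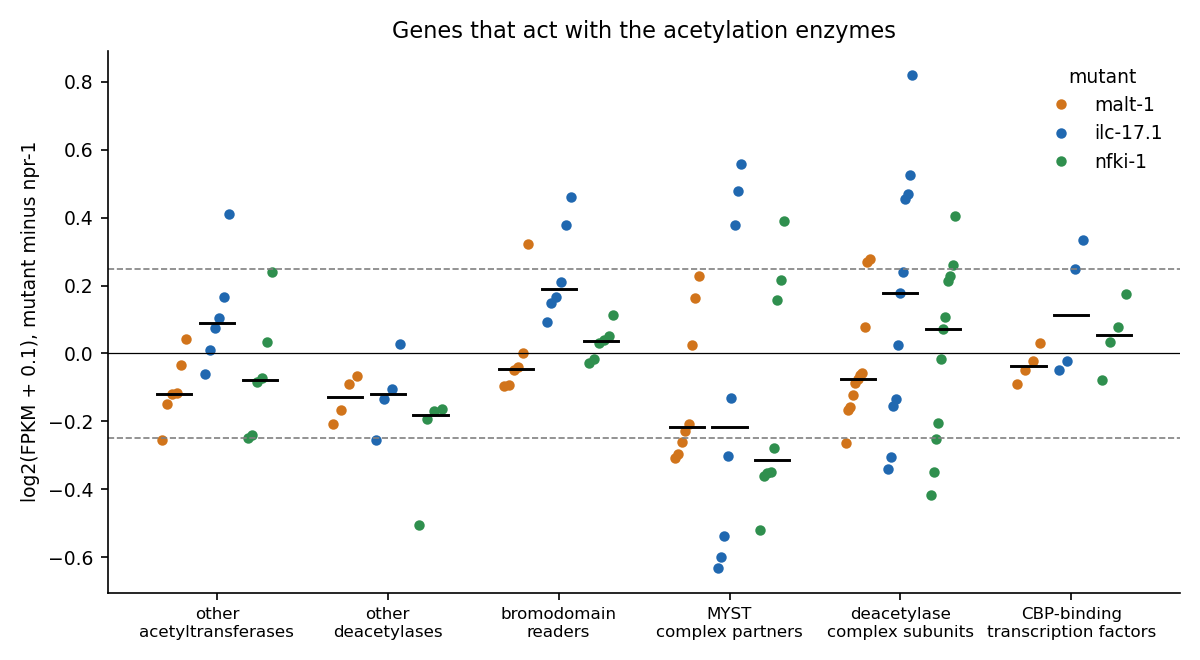
Difference of log2(FPKM + 0.1) from *npr-1* for genes that act with the acetylation enzymes, with 1 point per gene with at least 1 FPKM, a black bar at each list's median and dashed lines at the fold of 0.25. In *ilc-17.1* mutants the deacetylase complex subunits run from -0.34 (*lin-53*) to 0.82 (*chd-3*) and the MYST partners from -0.63 (*mrg-1*) to 0.56 (*ssl-1*).

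Of 6 bromodomain readers, 1 was higher in *malt-1* mutants (*nurf-1*, 0.32), 2 in *ilc-17.1* mutants, with *bet-2*, which encodes a BET-family protein, the highest at 0.46, and 0 in *nfki-1* mutants. None of the 6 was lower past the fold in any mutant. After the same subtraction, 0 were higher in any mutant and 1 was lower in *ilc-17.1* mutants. Of 4 transcription factors that bind CBP in worms or mammals, 1 was past the fold, *hif-1*, which mediates the response to low oxygen, at 0.33 in *ilc-17.1* mutants. *crh-1*, the homolog of CREB, was at 44.4 FPKM in *ilc-17.1* mutants and 37.4 FPKM in *npr-1*. Its difference there, 0.248, was just inside the fold, and it had -0.05 and 0.03 in *malt-1* and *nfki-1* mutants.

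The genes whose 3 differences from *npr-1* were most like those of *cbp-1* were found by the largest gap over the 3 mutants, among the 13249 other genes. The nearest was *ogt-1*, which encodes the O-GlcNAc transferase, with differences of 0.41, 0.80 and 0.43 in the 3 mutants and a largest gap of 0.04. K02A6.3 (largest gap 0.05), W07E11.1, C07B5.6 and WBGene00018856 (each 0.06) followed. C07B5.6 and WBGene00018856 were at 1.11 and 1.43 FPKM in *npr-1*, near the minimum. In all, 19 genes lay within 0.1 of *cbp-1* in each mutant.

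Markers of tissues moved in the same samples. For the 8 germline markers, summed FPKM was 896 in the control and 731 with *malt-1* mutated, 909 and 606 in the comparison of *ilc-17.1* mutants, and 904 and 719 in that of *nfki-1* mutants. Summed FPKM of the 6 yolk protein genes was 465 and 689, 471 and 1514, and 470 and 1470 in the same order. Of 7 oocyte markers, 6 were lower in *malt-1* mutants, 2 were higher in *ilc-17.1* mutants and 0 passed the fold in *nfki-1* mutants. Of 5 sperm markers, 1, 0 and 4 had higher values past the fold in the 3 mutants, and 0 were lower. Of 7 neuron markers, 2, 5 and 5 were lower, and 1 was higher in *ilc-17.1* mutants. Of 4 muscle markers, 1, 3 and 2 were higher, and 0 of the 4 intestine markers with at least 1 FPKM passed the fold. After subtraction of the median of genes with like transcript length, 0 muscle markers passed the fold in any mutant. Neuron markers were then lower in 2, 3 and 4 cases and higher in 0. Germline and oocyte counts did not change. With it, 1 sperm marker was lower in *ilc-17.1* mutants and 5 yolk protein genes higher in *malt-1* mutants. Of all genes, 18.9%, 24.3% and 25.9% were higher and 14.8%, 22.5% and 20.5% lower in the 3 mutants. Of 3 epidermis markers, *lin-26* alone had at least 1 FPKM, and *nhr-25* and the intestine marker *ifb-2* were listed at 0. Whether these shifts have a part in the values of *cbp-1*, *hda-3* or *hda-4* was not tested.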

How the data were processed

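The authors prepared stranded polyA libraries, sequenced single-end reads, aligned them with TopHat2 2.1.0 and quantified expression with Cufflinks 2.2.1, and the submitters' processing notes also name Trim Galore 0.4.3 and Cuffdiff. The deposited table gives 1 FPKM value per genotype in each of 7 comparisons, scaled by the authors within a comparison. It has 0 columns for single samples. Its columns of fold changes, test statistics, p-values, q-values and status hold the authors' own comparisons and were not used. The genome build is not given in the sources used here. Of 23207 genes with their own locus, 58.6% matched WBcel235 exactly and 86.1% within 100 bases, and names and transcript lengths come from its annotation.

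Differences were computed from the FPKM values of the same comparison with a pseudocount of 0.1, for genes with a mean of at least 1 FPKM in *npr-1* (Python 3.11.15, pandas 2.3.3, numpy 2.4.6). The table spells *ilc-17.1* as ilk17. Counting was tested on simulated data. The 10 genes were all named, other genes only from lists by role (104 genes in all, members and markers included), by the largest change in each direction, and for *cbp-1* the 5 genes with the nearest pattern. Some others from those lists (*cbp-2* and *cbp-3* as relatives, *hda-10*, *lin-40*, *crh-1*, *lin-26*, *nhr-25*, *ifb-2*), R10E11.13, T21F2.2 and *npa-1* were named after their values were seen. Members and lists were chosen with earlier results of these data known. Alternatives were other pseudocounts, minima, folds and scalings.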

Additional observations from a re-analysis of the deposited data

How the results depend on the processing

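No paired analysis was possible because the deposited table holds no value per sample, and for the same reason no replicate could be left out. Of 480 values of the 10 genes under the alternatives, 465 kept their side of the fold, 13 no longer passed it and 2 newly passed it. The 60 values with no minimum FPKM and the 60 with a minimum of 5 FPKM could not change. A minimum alters only which genes are counted. Of the 13, 8 came with a fold of 0.5, 4 with length centring and 1 with values averaged over comparisons. In the main analysis only 2, 3 and 2 of the 10 genes passed the fold in the 3 mutants against *npr-1*. In each comparison between mutants 0 or 2 did, so most of the 480 values had no fold to lose. No value past the fold changed sign, and 8 inside it did, none larger than 0.09 before or after, 6 of them under length centring and 2 with values averaged over comparisons. With the fold set at 0.5, 0 of the 10 genes passed in *malt-1* mutants, 0 in *nfki-1* mutants, 1 between *ilc-17.1* and *malt-1* mutants and 0 between *nfki-1* and *ilc-17.1* mutants. The *cbp-1* values of 0.39, 0.45, 0.46 and -0.38 in those comparisons are then below it, while 0.84 in *ilc-17.1* mutants passes. Both of the following alternatives, length centring and genes with their own locus, were chosen after seeing the data. When centred on the 200 genes nearest in rank of transcript length, *cbp-1* fell inside the fold in *malt-1* (0.23) and *nfki-1* mutants (0.22), between *ilc-17.1* and *malt-1* mutants (0.14) and between *nfki-1* and *ilc-17.1* mutants (-0.16), and 1 gene passed in each of the *malt-1*, *nfki-1* and *nfki-1* to *ilc-17.1* comparisons. *hda-2* in *ilc-17.1* mutants (-0.26) and *hda-6* for *ilc-17.1* minus *malt-1* (-0.34) newly passed, and the genes past the fold in *ilc-17.1* mutants against *npr-1* were 4 instead of 3. *hda-3* in *ilc-17.1* mutants was at -0.25, just inside the fold, with values averaged over comparisons. The cause of these shifts was not tested.

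Counts over all genes moved with the number of genes or the fold, by construction. In the main analysis the genes higher and lower were 2501 and 1959 in *malt-1*, 3215 and 2987 in *ilc-17.1* and 3433 and 2721 in *nfki-1* mutants against *npr-1*, 2720 and 2490 for *ilc-17.1* minus *malt-1*, 2369 and 1527 for *nfki-1* minus *malt-1*, and 2554 and 1855 for *nfki-1* minus *ilc-17.1*. With a fold of 0.5 they were, in that order, 823 and 944, 1294 and 1142, 1921 and 1055, 951 and 687, 910 and 512, and 1476 and 697. With no minimum FPKM they were 3992 and 3029 in *malt-1* mutants, 5200 higher in *ilc-17.1* and 5180 higher in *nfki-1* mutants, 4517 higher for *ilc-17.1* minus *malt-1*, 3867 and 2567 for *nfki-1* minus *malt-1*, and 3437 lower for *nfki-1* minus *ilc-17.1*. With a minimum of 5 FPKM they were 1631 and 1104 in *malt-1* mutants, 2074 higher in *ilc-17.1* mutants, 1674 higher for *ilc-17.1* minus *malt-1*, 1454 and 936 for *nfki-1* minus *malt-1*, and 1016 lower for *nfki-1* minus *ilc-17.1*. For genes with a locus of their own, the second alternative added, they were 1620 and 1161 in *malt-1*, 1869 and 1905 in *ilc-17.1* and 2186 and 1696 in *nfki-1* mutants, 1528 higher for *ilc-17.1* minus *malt-1*, 1482 and 964 for *nfki-1* minus *malt-1*, and 1056 lower for *nfki-1* minus *ilc-17.1*. The other counts stayed within 1.5 times.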

Other observations

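Genes that supply the cofactors of these enzymes were read from a list of 5. *pnc-1*, which encodes the nicotinamidase that opens NAD salvage in worms, was at 23.6 FPKM in *ilc-17.1* mutants and 31.3 FPKM in *npr-1*, a difference of -0.41, and had -0.13 and -0.16 in *malt-1* and *nfki-1* mutants. *qns-1*, which encodes NAD synthetase, had differences of 0.03, -0.09 and -0.01 in the *malt-1*, the *ilc-17.1* and the *nfki-1* mutants. *acly-1*, *acly-2* and *acs-19*, named for the ATP-citrate lyases and an acetyl-CoA synthetase, were listed at 0 in every genotype. Since 25637 genes of the table were listed at 0 throughout, 1 of 78 ribosomal protein genes among them, a listed 0 was not read as absent expression.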
